A study of Mus musculus with 6 samples.

Results

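The genes described here encode the sensors of the unfolded protein response (UPR) and the transcription factors these sensors release or make. Also included are genes of membrane-bound factors of the CREB3 family and of the site-1 and site-2 proteases that cut the membrane-bound factors. All these genes were chosen by gene name, with earlier results of these data already known. They are Ern1, Xbp1, Atf6, Atf6b, Eif2ak3, Creb3, Creb3l2, Mbtps1 and Mbtps2. All 9 were found among the 54532 genes of the count table, and 8 of the 9 had enough reads to be tested, beside 8513 tested genes in all. Creb3 was the member that did not.

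RNA sequencing was done on mouse germ cells in early meiotic prophase, namely leptotene/zygotene (L/Z) spermatocytes that had been isolated by FACS from the testis at 12 days postpartum (dpp). The samples were 3 control libraries and 3 Eef1g-cKO libraries. Eef1g encodes eEF1G, the gamma subunit of eEF1, a complex that serves elongation in translation. In Eef1g-cKO males a floxed stretch of Eef1g exons was removed by the Stra8-GFPCre transgene, whose Cre acts in germ cells from differentiating spermatogonia onwards, so somatic cells of the testis kept the gene. The controls are given as wild type in the labels and as littermates of the same age in the study. The floxed line was on a C57BL/6J background, and whether the controls carried the Cre or a floxed allele is not stated. Nor is it stated whether each library came from a separate male, and the p-values below measure only the spread between these libraries, which may be technical.

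The unfolded protein response is how a cell answers a load of misfolded proteins in the endoplasmic reticulum (ER). Its 3 classical sensors are membrane proteins with a domain in the ER lumen, which is held inactive by the chaperone BiP. IRE1α, encoded by Ern1, cuts a short intron out of Xbp1 mRNA in the cytoplasm and so lets the active factor XBP1s be made. PERK, encoded by Eif2ak3, phosphorylates the initiation factor eIF2α, which slows general translation while favouring that of Atf4. ATF6 travels to the Golgi, where the proteases encoded by Mbtps1 and Mbtps2 cut it within and beside the membrane and free its transcription factor domain, and ATF6B and the CREB3 family are processed in the same way. Much of this regulation is thus through cutting, splicing and phosphorylation, none of which a gene-level read count measures.

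The sequence on which the IRE1α arm turns lies in exon 4 of 5 of Xbp1 transcript Xbp1-201, within the coding sequence, at chr11:5524270-5524313 on the plus strand of GRCm38. It is shown because all Xbp1 reads below are counted without regard to it. The capitals mark the 26 bases that IRE1α excises, positions 5524279 to 5524304:
Xbp1: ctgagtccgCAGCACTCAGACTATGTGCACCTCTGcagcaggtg
The site is in 3 of the 4 annotated Xbp1 transcripts, and these 3 are the coding ones. Counts per gene add the spliced and unspliced forms together, so the share of Xbp1 mRNA that had been spliced was not measured here.

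A second set of sequences shows what the released factors are known to bind. The ER stress response element (ERSE, the letters CCAAT and CCACG with 9 bases between them) is bound by ATF6 with the factor NF-Y, and ERSE-II, ATTGG and CCACG with 1 base between them, is a compact form of it. Both were searched on both strands from 250 bases before to 50 bases after the RefSeq start of each gene (GRCm38.p6). The following sites belong to target genes whose RNA rose in Eef1g-cKO cells, as described below, and the capitals mark the fixed letters of each element:
Hspa5: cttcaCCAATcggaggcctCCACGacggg
Pdia6: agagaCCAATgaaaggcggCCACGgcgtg
Dnajc3: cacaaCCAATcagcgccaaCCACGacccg
Herpud1: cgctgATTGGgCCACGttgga
They lie at chr2:34772020-34772048, chr12:17266486-17266514, chr14:118937822-118937850 and chr8:94386372-94386392, all on the plus strand and upstream of the start. Windows were found for 8 of the 9 sensor, factor and protease genes, all but Atf6, and 0 of the 8 held ERSE, ERSE-II, the XBP1 element TGACGTGG, the cyclic AMP element TGACGTCA or the ATF4 element TGATGNAAT. Among all 27025 genes with a promoter window these were found in 0.137%, 0.0444%, 0.714%, 2.03% and 1.08%, and a window without a match says only that these letters are not there. In the target lists below, TGACGTGG was found in Sec24d and TGACGTCA in Ppp1r15a, named here for these matches. Neither gene was called changed in edgeR.

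The depth and the makeup of the libraries bear on all values that follow. Library totals ran from 763133 to 2617648 reads assigned to genes, with the lowest in Eef1g-cKO replicate 3, so that 3 reads corresponded to 1.18 to 4.63 CPM (reads of a gene in every 1000000 of its library, scaled by TMM). Nuclear rRNA genes took 2.73% to 9.23% of the reads, most in Eef1g-cKO replicate 3. Eef1g itself fell from 220 ± 7.34 to 136 ± 16.0 CPM (SD, n = 3 each), or −0.68 as log2 fold change (SE 0.20, adjusted p = 0.029 in edgeR), a call that was lost without any 1 control library or without Eef1g-cKO replicate 1 (log2 fold changes of −0.71 to −0.66, edgeR adjusted p of 0.0837 to 0.121). Early meiotic markers, 10 genes with Sycp1, Sycp3 and Dmc1 among them, were all detected and summed to 8465 to 9071 CPM in control and 16701 to 21374 CPM in Eef1g-cKO libraries, and 5 of the 10 were higher and 1, Stra8, lower. Spermatogonial markers summed to 1388 to 1596 against 674 to 799 CPM, with 4 of 5 tested lower and Nanos3 and Lin28a at 0 in all Eef1g-cKO libraries. Sertoli markers summed to 270 to 668 against 113 to 125 CPM, with 4 of 6 tested lower and Amh, Gata4 and Gata1 at 0 in all Eef1g-cKO libraries. By the same edgeR call, defined below, 7.8% of all tested genes were higher and 6.01% lower. Peritubular and stromal markers summed to 188 to 322 against 23.2 to 79.2 CPM, Leydig markers to 8.40 to 11.4 against 1.57 to 7.28 CPM, markers of pachytene and later germ cells to 13.1 to 26.7 against 1.18 to 6.47 CPM, and blood markers to 6.72 to 77.9 against 3.23 to 75.7 CPM. In all Eef1g-cKO libraries 4 of 7 Leydig markers (Cyp17a1, Cyp11a1, Hsd3b1 and Insl3), 5 of 9 pachytene and later markers and 5 of 8 blood markers were at 0. In all control libraries 3 Leydig, 5 pachytene and later and 3 blood markers were also at 0. By staining of its sorted cells, the study reported a comparable share of L/Z spermatocytes in both genotypes. The part of these marker differences in the results below was not tested. In such bulk samples fewer cells of a type and less RNA per cell cannot be told apart.

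The RNAs of the UPR sensors, factors and proteases were present at low to middling levels in both genotypes, and none of the 8 tested passed the test between them. A gene was called changed at an adjusted p under 0.05, in edgeR's quasi-likelihood test with Benjamini-Hochberg adjustment over all tested genes, with no limit on the fold change. By this rule 13.8% of all tested genes were called, 7.8% higher and 6.01% lower in Eef1g-cKO cells, and 0 of the 8 members were. With a further limit of an absolute log2 fold change over 1, 8.38% of all tested genes were called, 3.42% higher and 4.96% lower, and again 0 of the 8 members. At an unadjusted p under 0.05 edgeR gave 2 of the 8, Mbtps1 and Mbtps2, against 27.5% of all tested genes. DESeq2 called 0 members after adjustment and 2 before it, beside 27.6% of all tested genes before adjustment. With limma-voom 1 member, Mbtps2, was called after adjustment and 2 before it, beside 32.5% before adjustment. Of all 8513 tested genes DESeq2 called 735 higher and 612 lower after adjustment, and limma-voom 886 higher and 655 lower. The median log2 fold change of the 8 was 0.03, with 4 above and 4 below 0, beside −0.05 over all tested genes, whose middle 50% ran from −0.62 to 0.43. Standard errors of the members ran from 0.29 to 0.74, so that differences of 2-fold and more could be missed.

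**Figure D1:**
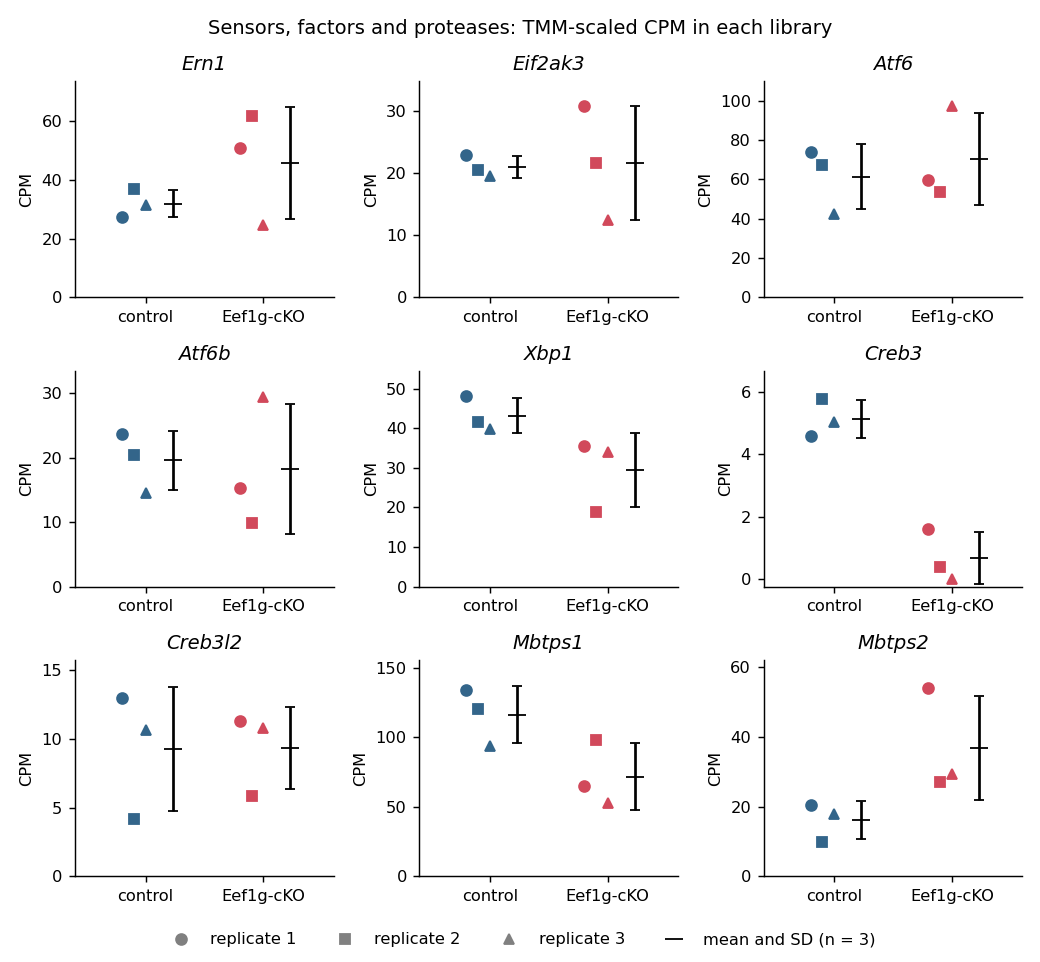
CPM of the 9 genes in each of the 6 libraries (points, control and Eef1g-cKO side by side) with the group mean and SD (n = 3 each). Mbtps2 lay higher and Xbp1 and Creb3 lower in every Eef1g-cKO library than in any control library, and the groups overlapped for the other genes.

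The first arm begins with Ern1, the gene of IRE1α, which lies at chr11:106394650-106487852 on the minus strand and has 22 exons in its longest coding transcript. Control libraries held 27.5, 36.7 and 31.3 CPM of Ern1 (replicates 1 to 3), and Eef1g-cKO libraries held 50.9, 61.9 and 24.7 CPM. A pair of Eef1g-cKO libraries thus lay above all controls, whereas the shallowest, replicate 3 with 16 Ern1 reads, lay below them. The means were 31.9 ± 4.66 and 45.9 ± 19.1 CPM (SD, n = 3 each), and the log2 fold change was 0.56 (SE 0.39, 95% interval −0.26 to 1.38, edgeR adjusted p = 0.382).

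Xbp1, the IRE1α substrate, lies at chr11:5520659-5525893 on the plus strand. Its total RNA, both splice forms together, was at 48.1, 41.5 and 39.7 CPM in control and at 35.6, 18.8 and 34.0 CPM in Eef1g-cKO libraries. Every Eef1g-cKO value was below every control value, a pattern that 18.1% of all tested genes showed in this direction. The log2 fold change was −0.58 (SE 0.40, 95% interval −1.41 to 0.25), and it did not pass the test (edgeR adjusted p = 0.370). Means of Xbp1 were 43.1 ± 4.40 and 29.5 ± 9.25 CPM (SD, n = 3 each). The interval reaches from a fall larger than 2-fold to a small rise, and whether splicing differed is not seen in these counts.

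Genes that work with the sensors or are known targets of XBP1 were counted beside this arm. Of 8 listed partners and regulators 6 were tested, 0 were higher and 1 was lower, beside 7.8% and 6.01% of all tested genes, with a median log2 fold change of −0.02. The lower one was Map3k5, which encodes the kinase ASK1 that acts downstream of IRE1α and TRAF2. Its levels were 41.2, 36.7 and 26.9 CPM in control and 5.66, 14.1 and 12.4 CPM in Eef1g-cKO libraries, which is −1.68 as log2 fold change (SE 0.51, adjusted p = 0.0344 in edgeR). This call was lost without control replicate 1, 2 or 3 or without Eef1g-cKO replicate 1, with edgeR adjusted p of 0.155, 0.128, 0.0714 and 0.115 and log2 fold changes of −1.54, −1.64, −1.84 and −1.34. It was also lost with no filter on low counts (0.0594) and with the GC content offset (0.0556), and Map3k5 passed in 7 of 14 alternatives. Of the partners that did not pass, Zbtb8os, which encodes archease, a cofactor of the RNA ligase that rejoins Xbp1 mRNA, was the most abundant per length, and its log2 fold change was −0.70 (edgeR adjusted p = 0.0571). Zbtb8os passed in 5 of 15 alternatives, among them the fit without Eef1g-cKO replicate 1 (−0.95, edgeR adjusted p = 0.0279).

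Of the 8 known XBP1 targets, all tested, 1 was higher and 0 were lower, beside 7.8% and 6.01% of all tested genes, and the median log2 fold change was −0.11. Dnajc3 encodes the ER co-chaperone P58IPK, and it was the higher one. It rose from 283 ± 63.0 to 915 ± 144 CPM (SD, n = 3 each), or 1.69 as log2 fold change (SE 0.19, adjusted p = 1.23e-05 in edgeR), and it carries the ERSE shown above. Sec61b, a subunit of the ER translocon and the most abundant per length of the others, had a log2 fold change of −0.12 (edgeR adjusted p = 0.713). The share of the list that was called is thus close to that of all genes.

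The second arm has ATF6 and its relative ATF6B. Atf6 lies at chr1:170704674-170867771 on the minus strand and was at 74.0, 67.2 and 42.5 CPM in control and 59.8, 53.7 and 97.3 CPM in Eef1g-cKO libraries. The groups overlapped, and the highest value came from the shallowest library. Means were 61.3 ± 16.6 and 70.3 ± 23.6 CPM (SD, n = 3 each), and the log2 fold change was 0.17 (SE 0.33, 95% interval −0.52 to 0.87, edgeR adjusted p = 0.789). A doubling of Atf6 RNA lies outside this interval.

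Atf6b, at chr17:34647146-34655074 on the plus strand, encodes a factor that is cut like ATF6 but is a weaker activator. It was at 23.7, 20.5 and 14.6 CPM in control and 15.4, 9.80 and 29.3 CPM in Eef1g-cKO libraries, and again replicate 3 of Eef1g-cKO was the highest of all. The log2 fold change was −0.17 (SE 0.56, 95% interval −1.35 to 1.01, edgeR adjusted p = 0.879), and the means of 19.6 ± 4.62 and 18.2 ± 10.1 CPM (SD, n = 3 each) overlapped widely. Neither gene had a direction that held in every alternative.

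Mbtps1 encodes the site-1 protease, which makes the first cut in ATF6 on the lumenal side, and lies at chr8:119508156-119558735 on the minus strand with 24 exons. It had 34 to 251 reads a library and the highest mean of the 9 genes, 156.5 reads. In Eef1g-cKO replicate 3 Atf6 had more, at 63 reads against 34. Its levels were 134, 121 and 94.0 CPM in control and 64.7, 98.4 and 52.5 CPM in Eef1g-cKO libraries. The groups overlapped only in that Eef1g-cKO replicate 2 lay just above control replicate 3. Means were 116 ± 20.5 and 71.9 ± 23.8 CPM (SD, n = 3 each), and the log2 fold change of −0.66 (SE 0.29, 95% interval −1.26 to −0.06, unadjusted p = 0.0319) did not pass after adjustment (edgeR adjusted p = 0.137). Without Eef1g-cKO replicate 2 it was −0.96 with an edgeR adjusted p of 0.0488, the one setting of 15 in which Mbtps1 passed.

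Mbtps2 encodes the site-2 protease, which makes the second cut inside the membrane, and is X-linked, at chrX:157535371-157598715 on the minus strand. It was at 20.6, 9.97 and 17.9 CPM in control and 54.2, 27.1 and 29.3 CPM in Eef1g-cKO libraries. Every Eef1g-cKO value was above every control value, as for 16.4% of all tested genes. The means were 16.2 ± 5.53 and 36.9 ± 15 CPM (SD, n = 3 each), and the log2 fold change of 1.20 (SE 0.48, 95% interval 0.18 to 2.21, unadjusted p = 0.0230) did not pass after adjustment (edgeR adjusted p = 0.111). With limma-voom and sample quality weights it was 1.44 and passed (adjusted p = 0.0217), the one setting of 15 that did so. Of the exon bases of Mbtps2, 28.4% are shared with Yy2, a gene on the same strand inside it that had 0 reads in all 6 libraries, and how reads in shared bases were counted is not stated.

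The proteases therefore had fitted changes of opposite sign, neither of them past the test. Per length, counted as CPM per kilobase of exon (RPKM), Mbtps1 was at 11.04 ± 1.95 and Mbtps2 at 1.60 ± 0.547 in control cells (SD, n = 3 each), and at 6.82 ± 2.26 and 3.65 ± 1.49 in Eef1g-cKO cells. Their ranges did not overlap in control cells.

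**Figure D2:**
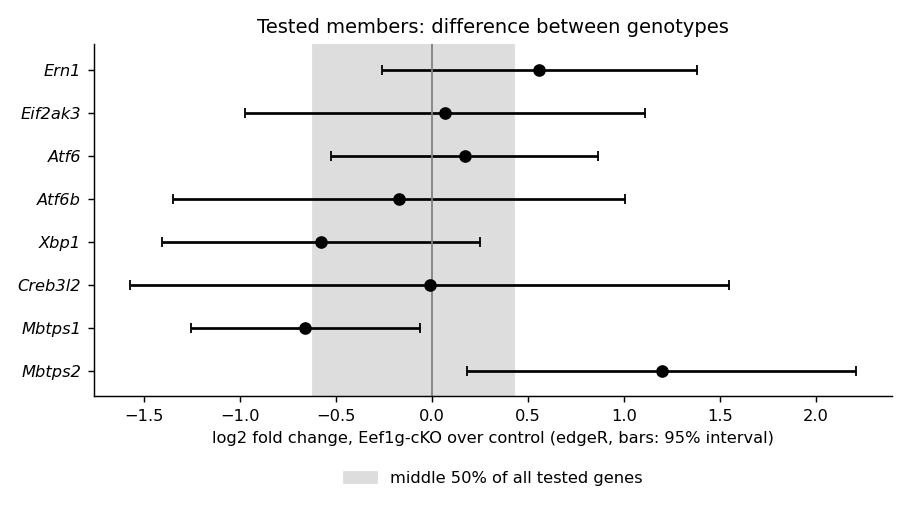
Log2 fold change, Eef1g-cKO over control, of the 8 tested genes with 95% intervals (edgeR, n = 3 each), with the middle 50% of all tested genes shaded. The intervals of Mbtps1 and Mbtps2 leave out 0, at −0.66 and 1.20, and those of the other 6 include it.

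Known targets of ATF6 were counted next, with each gene placed in a single list. Which arm acted on a given gene was not tested. Of 12 listed targets 11 were tested, 8 were higher and 0 lower in Eef1g-cKO cells, beside 7.8% of all tested genes that were higher, and the median log2 fold change was 0.85. With the limit of a log2 fold change over 1, 4 were higher, beside 3.42% of all tested genes. ER chaperone genes among the targets had been seen to rise in these data before the list was made, so the count is no independent evidence of its direction. Herpud1, whose product helps to clear misfolded ER proteins, moved most, from 32.8, 21.0 and 28.0 CPM in control to 237, 267 and 233 CPM in Eef1g-cKO libraries, or 3.18 as log2 fold change (SE 0.25, adjusted p = 5.87e-07 in edgeR). Hspa5, the gene of BiP, rose from 1774 ± 179 to 4567 ± 787 CPM (SD, n = 3 each), or 1.36 as log2 fold change (SE 0.14, adjusted p = 8.43e-06 in edgeR). BiP is the chaperone that holds all 3 sensors inactive.

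Manf, which encodes a secreted ER protein that binds BiP, rose by 1.03, Creld2, an ER disulfide isomerase gene, by 1.02, and Pdia6, another of these, by 0.94 on the log2 scale, with edgeR adjusted p of 0.000908, 0.00509 and 0.0018. The other 3 higher genes were Dnajb11, Hsp90b1 and Calr, chaperone and co-chaperone genes with log2 fold changes of 0.85, 0.82 and 0.66, named here after their values were seen. Calr and Dnajb11 did not pass with library totals as the only scaling (0.46 and 0.67, edgeR adjusted p of 0.0601 and 0.0836). The call on Dnajb11 was also lost without control replicate 2, control replicate 3 or Eef1g-cKO replicate 2, at log2 fold changes of 0.80, 0.85 and 0.64 and edgeR adjusted p of 0.0832, 0.0749 and 0.0921. Among the targets that did not pass, Sel1l, a subunit of the ER ubiquitin ligase complex, was the most abundant per length and had a log2 fold change of 0.10 (edgeR adjusted p = 0.835).

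Of the 10 ATF6 targets with a promoter window, 5 held ERSE (Calr, Creld2, Hsp90b1, Hspa5 and Pdia6) and 2 held ERSE-II (Dnajb11 and Herpud1). These 7 were all among the 8 higher genes, and no window was found for Manf. Several are known as ATF6 targets through these very elements, so the matches describe the list and are not a test of it.

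**Figure D3:**
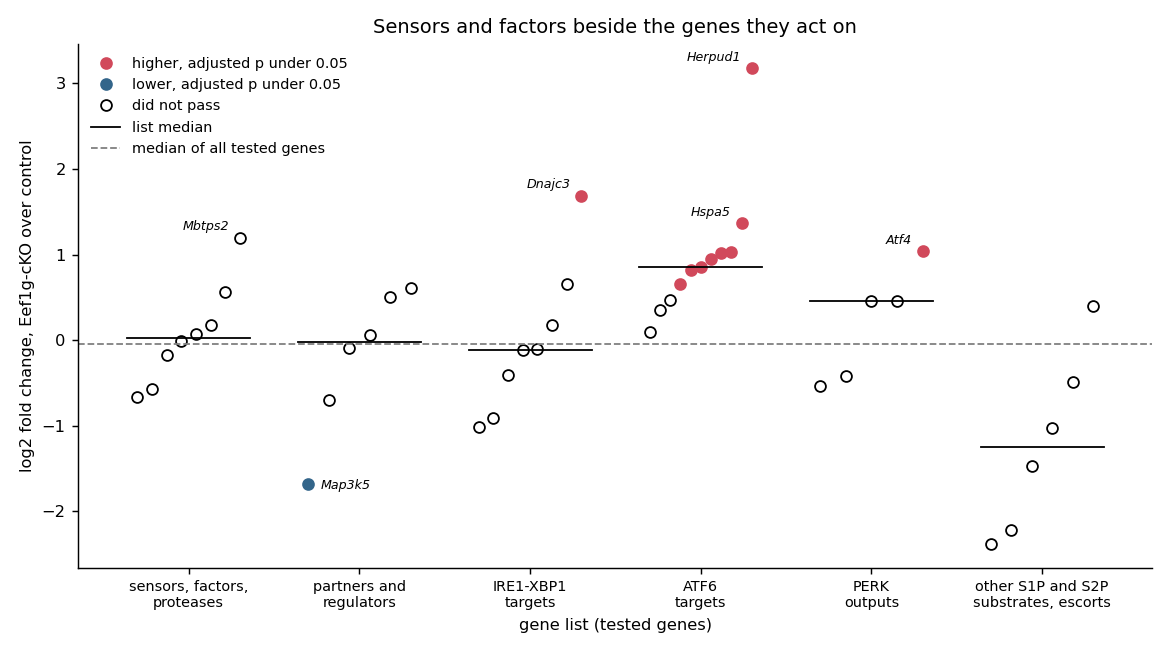
Log2 fold change, Eef1g-cKO over control, of every tested gene in 6 lists, with filled points for adjusted p under 0.05 (edgeR, n = 3 each), a bar at each list's median and a dashed line at the median of all tested genes. The 11 ATF6 targets lie above 0, 8 of them filled, and none of the 8 sensor, factor and protease genes is filled.

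In the third arm, Eif2ak3, the gene of PERK, lies at chr6:70844515-70905245 on the plus strand with 17 exons. Control libraries held 22.9, 20.5 and 19.6 CPM and Eef1g-cKO libraries 30.7, 21.6 and 12.4 CPM. The Eef1g-cKO values spread to both sides of the controls, the lowest of them being 8 reads in replicate 3. The means of 21.0 ± 1.71 and 21.5 ± 9.19 CPM (SD, n = 3 each) were close, and the log2 fold change was 0.07 (SE 0.50, 95% interval −0.97 to 1.11, edgeR adjusted p = 0.947). Changes of up to about 2-fold either way lie within this interval.

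Of 8 genes downstream of PERK 5 were tested, 1 was higher and 0 were lower, beside 7.8% and 6.01% of all tested genes, and their median log2 fold change was 0.46. Whether PERK acted on these genes here was not tested. Atf4, the factor whose translation eIF2α phosphorylation favours, rose from 259 ± 33.5 to 534 ± 100 CPM (SD, n = 3 each), or 1.04 as log2 fold change (SE 0.18, adjusted p = 0.000904 in edgeR). Ppp1r15b, a subunit of the eIF2α phosphatase and the most abundant per length of those that did not pass, had a log2 fold change of 0.46 (edgeR adjusted p = 0.237). A few of these genes had too few reads to be tested and are given here after their values were seen. Chac1, an ATF4 target that encodes a glutathione-degrading enzyme, had 0 reads in all 3 control libraries and 4, 14 and 4 in Eef1g-cKO libraries, at least 2.76-fold higher against a floor of 3 reads in each control library. Trib3, an ATF4 target that encodes a pseudokinase, had 1, 1 and 5 reads in control and 9, 24 and 1 in Eef1g-cKO libraries, a ratio of the group's pooled reads of 5.48 (95% interval 2.39 to 14.6). Ddit3, the gene of CHOP, had 17 reads in all control and 24 in all Eef1g-cKO libraries, a ratio of 1.59 (95% interval 0.820 to 3.16). These intervals cover counting error only. With no filter on low counts Chac1, Trib3 and Ddit3 had log2 fold changes of 5.99, 2.19 and 0.62. None of them passed (edgeR adjusted p of 0.0831, 0.462 and 0.782).

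The CREB3 family holds further membrane-bound factors that the same proteases release. Creb3, at chr4:43562332-43567060 on the plus strand, had 6, 11 and 9 reads in control and 2, 1 and 0 reads in Eef1g-cKO libraries, or 4.58, 5.77 and 5.04 against 1.62, 0.392 and 0 CPM. Every Eef1g-cKO library was below every control library, as for 18.1% of all tested genes, and all 3 were at or under the floor of 3 reads. The pooled 26 and 3 reads gave a ratio of 0.130, Eef1g-cKO over control, with a 95% counting interval of 0.0252 to 0.425. With no filter on low counts the log2 fold change was −2.68 and did not pass (unadjusted p = 0.0968, edgeR adjusted p = 0.449). Of the exon bases of Creb3, 20.8% overlap Tln1 and Gba2 on the opposite strand, and whether strand was used in the counting is not stated.

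Creb3l2, at chr6:37327255-37442146 on the minus strand, encodes the factor BBF2H7, known for raising secretory capacity in cartilage. It was at 13.0, 4.20 and 10.6 CPM in control and 11.3, 5.88 and 10.8 CPM in Eef1g-cKO libraries, from 7 to 19 reads each. The ranges covered each other, and the log2 fold change was −0.01 (SE 0.74, 95% interval −1.57 to 1.55, edgeR adjusted p = 0.992). At this depth a 2-fold change of Creb3l2 in either direction lies within the interval.

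Other clients of the proteases and the proteins that escort them were counted beside these factors. Of 9 such genes 6 were tested, and 0 were higher and 0 lower in edgeR, beside 7.8% and 6.01% of all tested genes, while the median log2 fold change was −1.25, with 5 of the 6 below 0. Insig2, which retains the sterol-regulated SREBP factors in the ER, was the most abundant per length and had a log2 fold change of 0.40 (edgeR adjusted p = 0.343). The genes of both SREBP factors, named after their values were seen, had few reads. Srebf1 had 13, 28 and 19 reads in control and 4, 4 and 2 in Eef1g-cKO libraries, and Srebf2 had 34, 43 and 29 against 12, 5 and 0. Their log2 fold changes were −2.22 and −2.38, with edgeR adjusted p of 0.0938 and 0.0529. Srebf2 passed in 5 of 14 alternatives, among them upper-quartile scaling (adjusted p = 0.043), no filter on low counts (0.0464), DESeq2 (0.0246) and the fit without Eef1g-cKO replicate 1 (−3.82, 0.0126).

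Compared per length, the 9 genes kept to the middle and lower range of the tested genes. In control cells Xbp1 was highest at 13.3 ± 1.36 RPKM, followed by Mbtps1 at 11.04 ± 1.95, Atf6b at 7.10 ± 1.68 and Atf6 at 6.64 ± 1.79 RPKM (SD, n = 3 each). Ern1 at 3.90 ± 0.570 and Eif2ak3 at 3.48 ± 0.284 came next, before Creb3 at 2.16 ± 0.254, Mbtps2 at 1.60 ± 0.547 and Creb3l2 at 1.27 ± 0.624 RPKM. Neighbours whose ranges over the libraries did not overlap were Mbtps1 and Atf6b, Atf6 and Ern1, and Eif2ak3 and Creb3, so that the control order falls into Xbp1 with Mbtps1, both Atf6 genes, Ern1 with Eif2ak3, and the 3 lowest. Xbp1 was above 60.2% and Creb3l2 above 4.02% of all tested genes, whose median was 9.37 RPKM. For comparison Hspa5 was at 419.5 RPKM in control cells.

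In Eef1g-cKO cells the order was less distinct. Xbp1 at 9.07 ± 2.85, Atf6 at 7.61 ± 2.56, Mbtps1 at 6.82 ± 2.26, Atf6b at 6.59 ± 3.65, Ern1 at 5.61 ± 2.34, Mbtps2 at 3.65 ± 1.49 and Eif2ak3 at 3.58 ± 1.52 RPKM (SD, n = 3 each) overlapped each with the next. Creb3l2 at 1.28 ± 0.413 and Creb3 at 0.282 ± 0.356 RPKM lay below them. SDs were larger than in control cells for all but Creb3l2, and this group holds both the deepest and the shallowest library.

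**Figure D4:**
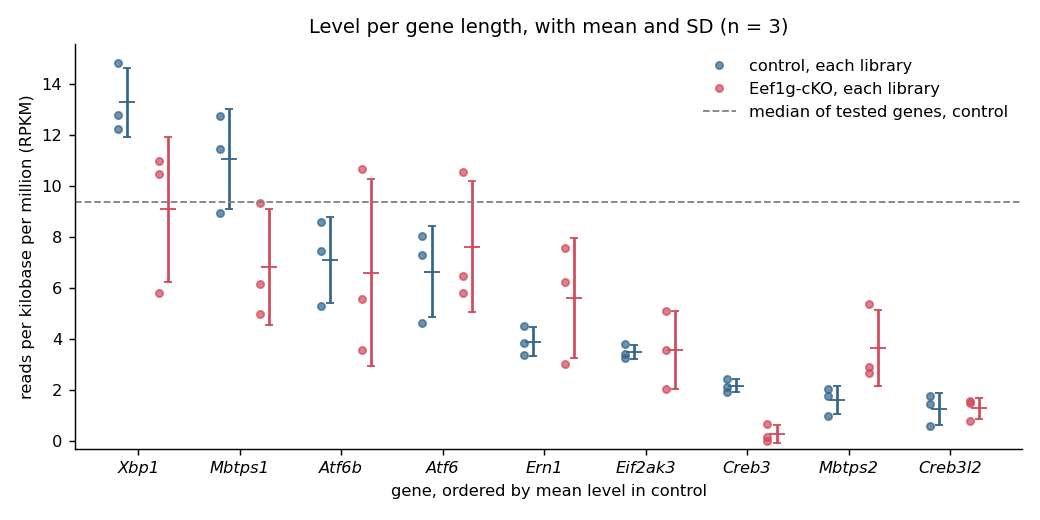
RPKM of the 9 genes in control and Eef1g-cKO libraries, ordered by the control mean, with the libraries as points, the group mean and SD beside them (n = 3 each) and a dashed line at the control median of all tested genes. Xbp1 leads in both groups at 13.3 and 9.07, and the wider spread of the Eef1g-cKO points is seen for most genes.

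For the 7 members with a mean of at least 20 reads, the tested genes with the most similar pattern over the 6 libraries were sought among about 3684 genes at a mean of at least 50 CPM. Ern1 was most like Ndufb6 (Pearson r = 0.988) and Yy1 (0.985), Xbp1 most like N4bp2l2 (0.987) and Ppp3ca (0.974), and Atf6 most like Zwilch (0.982) and Adam17 (0.982). Atf6b was nearest to Napg (0.992), and Eif2ak3 to Fam174a (0.986) and Dnaja1 (0.970). Mbtps1 was nearest to Ctsd (0.995) and Mtf2 (0.990), and Mbtps2 to Pkig (0.993) and Hbs1l (0.988). No gene of the lists above was among them. All points share the same 6 libraries with their genotype and depth, and with so many genes searched values this high describe likeness only.

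The direction of the members was followed through the other settings tried. Ern1 and Mbtps2 were above 0 and Xbp1 and Mbtps1 below 0 in all 15 settings, with ranges of the log2 fold change of 0.29 to 0.86, 0.83 to 1.44, −0.78 to −0.29 and −0.96 to −0.46. Ern1 and Xbp1 passed in none of them, with the lowest adjusted p at 0.113 and 0.208. Atf6, Atf6b, Eif2ak3 and Creb3l2 changed sign in at least 3 settings each.

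**Figure D5:**
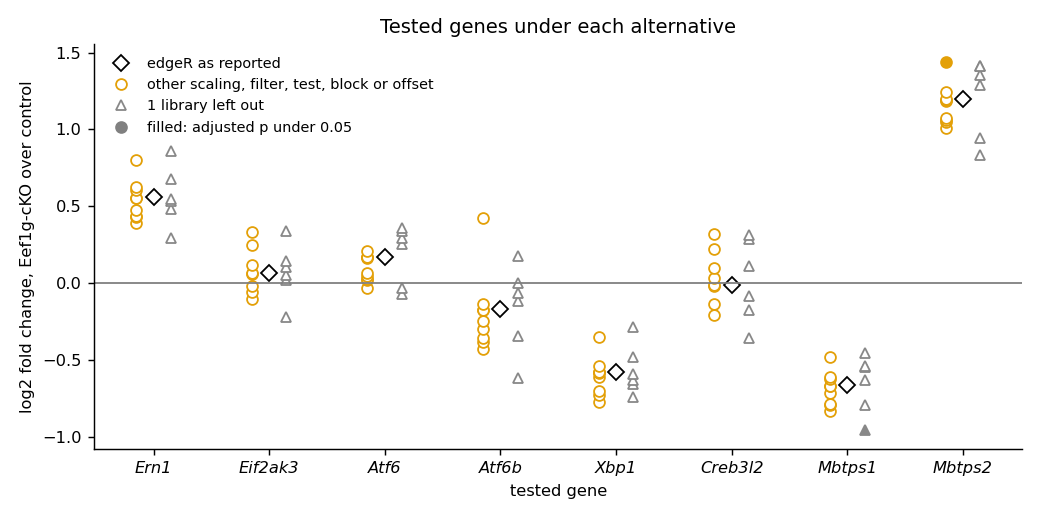
Log2 fold change, Eef1g-cKO over control, of the 8 tested genes in edgeR and in each other setting, as points, with filled points where adjusted p was under 0.05. Ern1 and Mbtps2 stay above 0 and Xbp1 and Mbtps1 below it, with 1 filled point each for Mbtps1 and Mbtps2.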

How the data were processed

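The authors trimmed reads with fastp, aligned them to GRCm38 (mm10) with HISAT2 2.2.1 and assigned them to genes with featureCounts 2.0.6. Raw counts were deposited, with no normalisation. Strand and multiple alignments in counting are not stated. Groups and replicate numbers came from the sample titles.

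Counts were tested with edgeR 4.0.16 in R 4.3.3: filterByExpr (minimum count 10, minimum total 15), TMM scaling, and the robust quasi-likelihood F test fitted on genotype alone. Benjamini-Hochberg adjustment ran over all 8513 tested genes. SEs are the absolute log2 fold change over the square root of F. RPKM used the deposited gene lengths. Named were all members, Eef1g, of each list up to 5 passing genes by fold change and the most abundant per length that did not pass, and 2 similar genes per member, 1 of which is not reported here. Ddit3 has 2 identifiers, and the one with reads was used. Members and lists were chosen with earlier results of these data known. Annotation was GENCODE mouse release M21. No libraries agreed within sampling noise (chi-square per degree of freedom at least 6.37). Alternatives used other scalings, filters, DESeq2 1.42.0, limma 3.58.1 (voom), a replicate block, a GC content offset added after seeing the data, and 1 library left out. The script was tested on simulated data.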

Additional observations from a re-analysis of the deposited data

How the results depend on the processing

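Of the 8 tested members, 1 was called higher with limma-voom (Mbtps2) and 0 to 1 lower when 1 library was left out (Mbtps1 without Eef1g-cKO replicate 2). Pathway genes called higher went from 10 to 6 with the fold change limit, and those called lower from 1 to 3 with DESeq2 and with upper-quartile scaling, to 0 with the GC content offset, 2 with library totals and 0 to 2 with 1 library left out. With library totals Calr and Dnajb11 were lost (adjusted p = 0.0601 and 0.0836) and 8 pathway genes were higher. These scalings move the median log2 fold change of all genes by −0.12 (upper-quartile) and −0.19 (library totals). With no filter the median was −0.30, but over 22130 genes in place of 8513, so the same genes were not compared. The 8 tested members all moved upward with no filter, such as Ern1 from 0.56 to 0.61 and Xbp1 from −0.58 to −0.54. Eef1g was at −0.64 with no filter, −0.69 with the replicate block, −0.43 with the GC content offset and −0.75 to −0.56 with 1 library left out, and did not pass in the first 3, nor without any 1 control library or Eef1g-cKO replicate 1. The sign turned for Atf6 with library totals (−0.033), for Atf6b with the GC content offset (0.42), for Eif2ak3 with upper-quartile scaling (−0.056), library totals (−0.11) and the replicate block (−0.018), and for Creb3l2 with no filter (0.033), limma-voom (0.22), the replicate block (0.10) and the GC content offset (0.32). With 1 library left out these 4 genes ran from −0.073 to 0.36, −0.62 to 0.18, −0.22 to 0.34 and −0.36 to 0.32. The cause was not tested.

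Libraries of the same replicate number showed no shared deviation from their group means (correlations −0.04, 0.02 and −0.05). Such values cannot exclude that the libraries were paired, which is not stated. The replicate block gave 496 higher and 377 lower genes in place of 664 and 512 and called 0 members. Among pathway genes the block ended the call on Map3k5 (−1.74, edgeR adjusted p = 0.0644) and gave one on Srebf2 (−2.85, 0.0464). Low counts limit Creb3, Creb3l2, Eif2ak3 and Atf6b, which had at most 55 reads in any library. Mbtps2 also had few, with 27, 19 and 32 reads in control and 67, 69 and 19 in Eef1g-cKO libraries.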
